A study of Mus musculus with 9 samples.

Results

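The Ly6 genes encode small proteins of the Ly6/uPAR fold, most of them tethered to the outer cell membrane by a lipid anchor. Several serve as surface markers of blood cells. Ly6G marks neutrophils, Ly6C marks monocytes and, more weakly, neutrophils, and Ly6A (Sca-1) marks stem cells and also many endothelial and mesenchymal cells. Ly6e is expressed widely, and both Ly6e and Ly6a are known to respond to interferon. The 6 members described here, Ly6g, Ly6e, Ly6a, Ly6c1, Ly6c2 and Ly6i, were chosen by name from the 55302 gene symbols of the tables. They were selected on measured levels in part, because Ly6g stood above 10 in every library while S100a8, S100a9 and Retnlg, other granulocyte genes, were mostly low outside PBS replicate 4, where they reached at most 15.3, 5.12 and 0.512 in that order of genes. S100a8 was itself above 10 in 2 of those 8 libraries, DOX replicates 3 and 5. Those levels are therefore given as a description. The comparison of treated and control mice was not used in the choice.

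The libraries came from lung fibroblasts sorted from mice with early-stage metastatic lungs. There were 5 libraries from mice treated with the anthracycline doxorubicin (DOX), which damages DNA, and 4 from mice given vehicle (PBS, which the labels also call saline). Doxorubicin was given at 5 mg/kg in 2 doses and lungs were collected 24 h after the last one. For this stage, Methods describe female BALB/c or C57BL/6 mice that received 4T1 or EO771 cells in a mammary fat pad when 8 weeks old. Tumors were removed 2 weeks later, and dosing began 4 days after surgery, with 5 days between doses. Which strain and tumor line these libraries came from is not given in the sources used here. No transgene or gene deletion is named for either group. The gate took cells negative for CD45, EpCAM and, in Methods but not in the labels, CD31, and positive for PDGFRα, so that blood cells such as neutrophils should have been left out. The labels call the libraries biological replicates, and p-values set the difference between the groups against the spread between these libraries.

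MARS-seq counts short tags from the 3′ ends of polyadenylated RNA, and its tags are stranded. A value here is a normalized count, which is the number of reads of a gene divided by the size factor of the library. Values were not divided by gene length, since a transcript gives about 1 tag whatever its length. The DOX libraries held 432322 to 1285816 reads (median 691945) and the PBS libraries 497637 to 734114 reads (median 599612.5). PBS replicate 4 stood apart from the rest. Its 16 granulocyte markers other than Ly6g summed to 1180 normalized counts, against 0 to 33.3 in the DOX libraries and 5.28 to 23.97 in the other PBS libraries. Its 12 pan-immune markers summed to 344, against 6.50 to 43.5 in DOX and 10.6 to 13.9 in the other PBS libraries. It also had the lowest sum of the 12 general fibroblast markers, at 1857, with 2764 to 3387 in DOX and 3346 to 3773 in the other PBS libraries. The comparisons of the members and of Slurp1 are therefore given with and without it. In bulk samples, fewer cells of a type and less RNA per cell cannot be told apart.

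Of the gate's own genes, Pdgfra was low in both groups, at 0.928 to 8.22 in DOX and 0.810 to 12.0 in PBS. Ptprc, which encodes CD45, was at 0 to 7.17 in DOX and 0 to 2.52 in PBS. Epcam was at 0 to 3.73 in DOX and 0 to 5.67 in PBS. Pecam1, which encodes CD31, was at 3.06 to 5.81 in DOX and 3.00 to 10.5 in PBS. Ly6g ranked 977th of the 17428 genes above 0 by its mean over the 9 libraries, and Pdgfra 4262nd. The collagen gene Col1a1, whose product is made in quantity by fibroblasts, stood at 1169 to 1785 in DOX and 1027 to 2333 in PBS. The strand setting of the count is not given in the sources used here. Whether the reads of these genes and of the marker lists came from the named transcripts was not tested.

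All 6 members lie on chromosome 15 of mm10 (GENCODE M21). Ly6e spans chr15:74955051-74959905 and Ly6g chr15:75155240-75159126, both on the plus strand. Ly6i (chr15:74979534-74983430), Ly6a (chr15:74994877-74998031), Ly6c1 (chr15:75044018-75048830) and Ly6c2 (chr15:75108158-75111970) lie between them on the minus strand. No annotated gene overlaps any of the 6 on either strand. The nearest gene on the strand opposite to Ly6g, I830127L07Rik, is 20112 bases away. Ly6g, Ly6c1 and Ly6c2 are close copies whose levels were far apart in these libraries, so the sequences around their start sites are shown, from 250 bases before to 50 bases after the first start site that RefSeq lists (GRCm38.p6), 5′ to 3′ on the gene's own strand. Capitals mark matches to TATAAA (the TATA box), to CCAAT (the CCAAT box), to GAGGAAGT (a match to the ETS factor PU.1, which is known for its part in myeloid cells) and to TTGCNNAA (a C/EBP match, on either strand). No match to GAAANNGAA (an interferon response core) or TTCNNNGAA (a STAT site) was found in these windows.
Ly6g, chr15:75155011-75155310, plus strand: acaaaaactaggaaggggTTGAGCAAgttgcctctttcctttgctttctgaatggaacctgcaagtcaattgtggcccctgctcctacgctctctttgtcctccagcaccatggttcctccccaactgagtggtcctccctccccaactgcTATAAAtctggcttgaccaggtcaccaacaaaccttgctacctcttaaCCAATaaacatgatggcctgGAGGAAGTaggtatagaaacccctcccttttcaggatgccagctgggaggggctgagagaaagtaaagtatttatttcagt
Ly6c1, chr15:75048788-75049087, minus strand: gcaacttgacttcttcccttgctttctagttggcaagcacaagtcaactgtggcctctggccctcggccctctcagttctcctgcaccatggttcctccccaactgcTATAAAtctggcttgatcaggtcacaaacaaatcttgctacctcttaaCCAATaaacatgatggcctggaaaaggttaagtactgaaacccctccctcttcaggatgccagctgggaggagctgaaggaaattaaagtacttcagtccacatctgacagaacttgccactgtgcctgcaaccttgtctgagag
Ly6c2, chr15:75111922-75112221, minus strand: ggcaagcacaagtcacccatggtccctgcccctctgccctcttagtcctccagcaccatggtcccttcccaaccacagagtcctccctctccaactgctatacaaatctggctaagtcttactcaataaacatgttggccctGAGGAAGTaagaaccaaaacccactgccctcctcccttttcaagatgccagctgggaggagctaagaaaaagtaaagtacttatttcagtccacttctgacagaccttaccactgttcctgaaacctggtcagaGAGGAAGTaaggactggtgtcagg

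The Ly6g window was 84.5% identical to the Ly6c1 window over 252 aligned bases and 80.7% identical to the Ly6c2 window over 223. TATAAA and CCAAT stood in the Ly6g and Ly6c1 windows and in the same surroundings. From the start sites shown, TATAAA began at position -99 in Ly6g and -143 in Ly6c1, and CCAAT at -51 and -95. The Ly6c2 window held neither. GAGGAAGT began at position -31 from the start site shown of Ly6g and at positions -108 and 27 from that of Ly6c2. The Ly6c1 window shown held no whole match, but it ends inside one, which began at position -127 from the second start site listed for Ly6c1. From the second start site of Ly6g there were matches at -99 and 27, and from that of Ly6c2 at -142 and -8, so that all 3 genes had a match near 1 of their start sites. Counted on both strands, GAGGAAGT stood in 3.20% of 32851 promoters of the same length, TATAAA in 13.6%, CCAAT in 37.4%, TTGCNNAA in 10.8%, GAAANNGAA in 8.56% and TTCNNNGAA in 8.30%. A match is a description of letters only. No data on binding or chromatin were used.

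Ly6g was the highest of the 6 members in 8 of the 9 libraries, and in PBS replicate 1 Ly6a was above it. It measured 63.1, 65.8, 57.2, 84.4 and 49.7 normalized counts in DOX replicates 1 to 5, against 12.99, 30.6, 29.0 and 81.8 in PBS replicates 1 to 4. The lowest value was that of PBS replicate 1, and the control library rich in granulocyte markers, PBS replicate 4, sat among the DOX libraries. These values rest on 34 to 113 reads per library in DOX and 13 to 101 in PBS. The exact 95% Poisson interval, which covers the counting of reads only, was 40.3 to 60.6 for the lowest DOX library and 6.91 to 22.2 for PBS replicate 1. The level that chose Ly6g, above 10 in every library, was passed by no other member. Nearest to it were Ly6g itself at 12.99 in PBS replicate 1 and Ly6e at 5.99 in the same library.

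**Figure D1:**
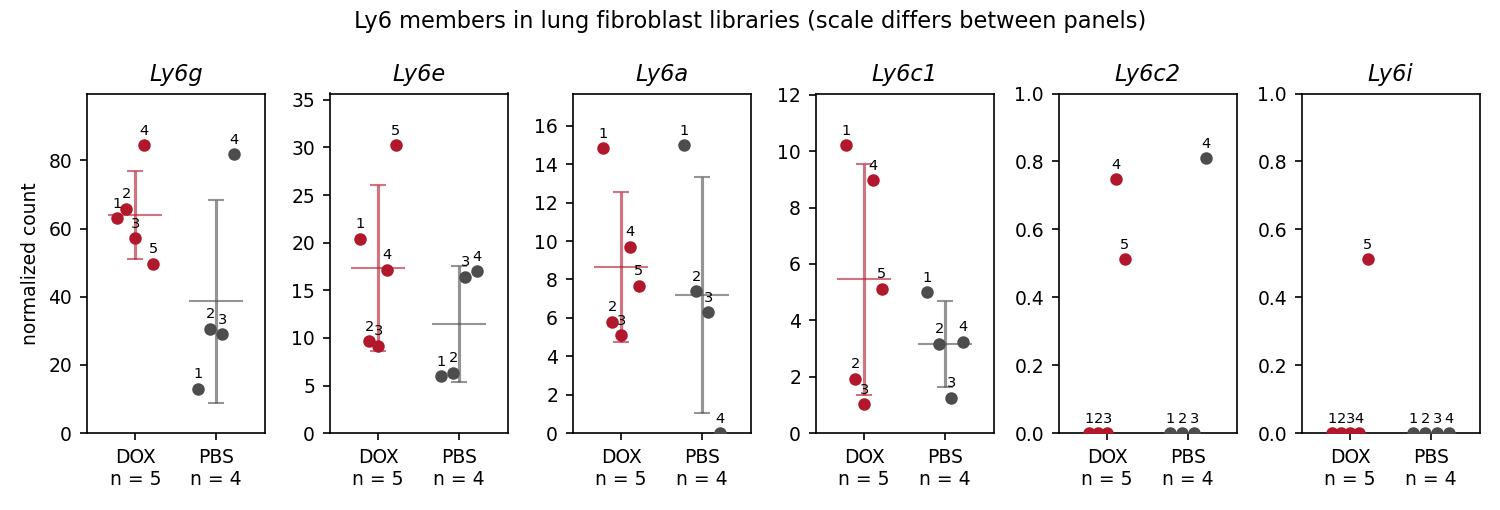
Normalized counts of the 6 Ly6 members, 1 panel per gene, with the 5 DOX libraries in red left of the 4 PBS libraries in grey. Points are libraries with their replicate number, and bars, for the 4 higher members, are the mean and SD. The y axes differ. Ly6g lies at 49.7 to 84.4 in DOX and 12.99 to 81.8 in PBS, and Ly6i is above 0 in a single DOX library.

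Ly6g averaged 64.0 ± 12.96 in DOX (SD, n = 5) and 38.6 ± 29.9 in PBS (SD, n = 4). Its log2 fold change was 0.98 (DOX minus PBS, standard error 0.45, 95% interval 0.03 to 1.94) on the log2(normalized count + 1) scale. It did not pass limma's test, with an adjusted p = 0.761 after Benjamini-Hochberg adjustment over 2604 genes and an unadjusted p = 0.0437. The share of those genes that limma called at an adjusted p of 0.05 was 0%, and 162 genes, 6.22%, had an unadjusted p below 0.05. A DOX library was the higher one in 16 of the 20 pairs of a DOX and a PBS library. The groups overlapped through PBS replicate 4 alone, as the next highest PBS library was at 30.6. Without it PBS averaged 24.2 ± 9.75 (SD, n = 3), the DOX libraries were all higher than the remaining PBS libraries, and limma gave a log2 fold change of 1.44 (adjusted p = 0.427). Of the 2604 genes, 3.38% were separated in that direction without PBS replicate 4, and 1.27% with all libraries. With all 9 libraries an exact two-sided permutation test of Ly6g gave p = 0.0794 (126 assignments, smallest possible 0.0079). Without PBS replicate 4 an exact two-sided permutation test gave p = 0.0179 (56 assignments, where 0.0179 is the smallest possible). PBS replicate 4 was the only control library that overlapped the DOX libraries, so leaving it out brought the result to that limit. The test without it therefore cannot show a difference between the groups. Without PBS replicate 1, the lowest library, the log2 fold change was 0.58 (adjusted p = 0.883, limma).

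Ly6e, which encodes a membrane protein known to restrict the entry of some viruses, was the only other member high enough for the fit. It was at 20.4, 9.68, 9.19, 17.2 and 30.2 in DOX, against 5.99, 6.33, 16.4 and 17.0 in PBS. The groups overlapped broadly, although the 2 highest libraries were DOX replicates 5 and 1. Means were 17.3 ± 8.67 in DOX (SD, n = 5) and 11.4 ± 6.10 in PBS (SD, n = 4). The difference was within the spread between replicates (log2 fold change 0.57, standard error 0.61, 95% interval -0.71 to 1.86, adjusted p = 0.894, limma). Without PBS replicate 4 it was 0.80 (adjusted p = 0.814, limma). Ly6g exceeded Ly6e in each library, 1.64 to 6.80 times in DOX and 1.77 to 4.83 times in PBS.

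Ly6a, the gene of the stem cell antigen Sca-1, was below the minimum set for the fit (10 or more in at least 4 libraries). It was at 14.8, 5.81, 5.11, 9.71 and 7.68 in DOX, against 15.0, 7.39, 6.31 and 0 in PBS. The library without a read was PBS replicate 4, where 3 reads, the limit that a count of 0 allows, would be 2.43 normalized counts. Apart from that library the groups covered the same range. Means were 8.63 ± 3.91 in DOX (SD, n = 5) and 7.17 ± 6.14 in PBS (SD, n = 4). The log2 fold change was 0.70 (exact two-sided permutation p = 0.548) and, without PBS replicate 4, -0.13 (exact permutation p = 0.750), so that its sign was set by that single library.

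Ly6c1 encodes the form of Ly6C known from endothelial cells, and Ly6c2 that of monocytes. Ly6c1 was at 10.2, 1.94, 1.02, 8.96 and 5.12 in DOX, against 4.99, 3.17, 1.26 and 3.24 in PBS, with 1 to 12 reads per library. The groups overlapped over the whole PBS range, and the DOX libraries fell on both sides of it. Means were 5.45 ± 4.09 in DOX (SD, n = 5) and 3.17 ± 1.52 in PBS (SD, n = 4), with a log2 fold change of 0.42 (exact two-sided permutation p = 0.468) and, without PBS replicate 4, of 0.46 (exact permutation p = 0.518). Ly6c2 was detected by a single read each in DOX replicates 4 and 5 and in PBS replicate 4, the last at 0.810, and was at 0 in the other 6 libraries. The count of the myeloid form was thus not above the limit of 3 reads in any library, including PBS replicate 4 with its high granulocyte markers. The last 300 bases of Ly6c1 and Ly6c2 were 98.0% identical, so this low count cannot show that the Ly6c2 transcript was absent. Ly6i, a further member of the cluster known from myeloid cells, had 1 read in DOX replicate 5 and none elsewhere. No fold change is given for either, as both groups were at or under the limit of 3 reads, which is 1.54 to 5.81 normalized counts in these libraries.

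Ordered by the mean over the 9 libraries, the members were Ly6g (52.7), Ly6e (14.7), Ly6a (7.98), Ly6c1 (4.43), Ly6c2 (0.230) and Ly6i (0.0569). Ly6g exceeded Ly6e in 9 of 9 libraries, Ly6e exceeded Ly6a in 7, and Ly6a exceeded Ly6c1 in 8. The ranges of Ly6g and Ly6e, of Ly6e and Ly6a, and of Ly6a and Ly6c1 overlapped, whereas those of Ly6c1 and Ly6c2 did not. Ly6c2 and Ly6i were both at 0 in most libraries and cannot be ordered. Ly6g made up 53.0 to 79.1% of the reads of the 6 members in DOX (median 69.8%) and 33.3 to 79.5% in PBS (median 59.6%).

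Reads are counted per gene, so a gene that shares sequence with a copy at its 3′ end can gain or lose reads. The last 300 bases of the Ly6c1 and Ly6c2 transcripts were 98.0% identical, with an exact run of 124 bases, and their split of reads is uncertain. The last 300 bases of Ly6g were 83.6 to 84.5% identical to those of Ly6a, Ly6c1, Ly6c2 and Ly6i, and the longest exact runs were 35 to 49 bases. Ly6e was 50.5 to 58.7% identical to the other 5. Ly6a was below Ly6g in 8 of 9 libraries, and Ly6c1, Ly6c2 and Ly6i were below it in 9 of 9. The identities were taken from the reference strain, and reads of a BALB/c mouse could differ from it.

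Ly6g stood far from the other granulocyte genes named with it. S100a8 and S100a9 encode the subunits of calprotectin, the most abundant cytosolic protein of neutrophils, and Retnlg encodes a resistin-like peptide of mature neutrophils. S100a8 was at 4.64, 0, 15.3, 0 and 13.8 in DOX, against 2.00, 3.17, 5.05 and 756 in PBS. S100a9 was at 0, 0, 0, 2.24 and 5.12 in DOX, against 0, 0, 1.26 and 164 in PBS. Retnlg was at 0.512 in DOX replicate 5 and 27.5 in PBS replicate 4, and at 0 in the other 7 libraries. All 3 were thus high in 1 library only, the same one. In PBS replicate 4 the ratio of S100a8 to Ly6g was 9.24 and that of S100a9 to Ly6g was 2.00. In DOX the ratio of S100a8 to Ly6g was 0 to 0.278 (median 0.0735), and in the other PBS libraries it was 0.103 to 0.174. DOX replicate 2 had Ly6g at 65.8 and a sum of 0 over all 16 granulocyte markers other than Ly6g. It was also the library with the fewest reads, 432322, where 3 reads of a gene would be 5.81 normalized counts. In the other DOX libraries that sum was 14.9 to 33.3. The ratios to Ly6g describe the values by which Ly6g was chosen, and they carry no test. The part of granulocyte RNA in the Ly6g level of PBS replicate 4 was not tested.

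**Figure D2:**
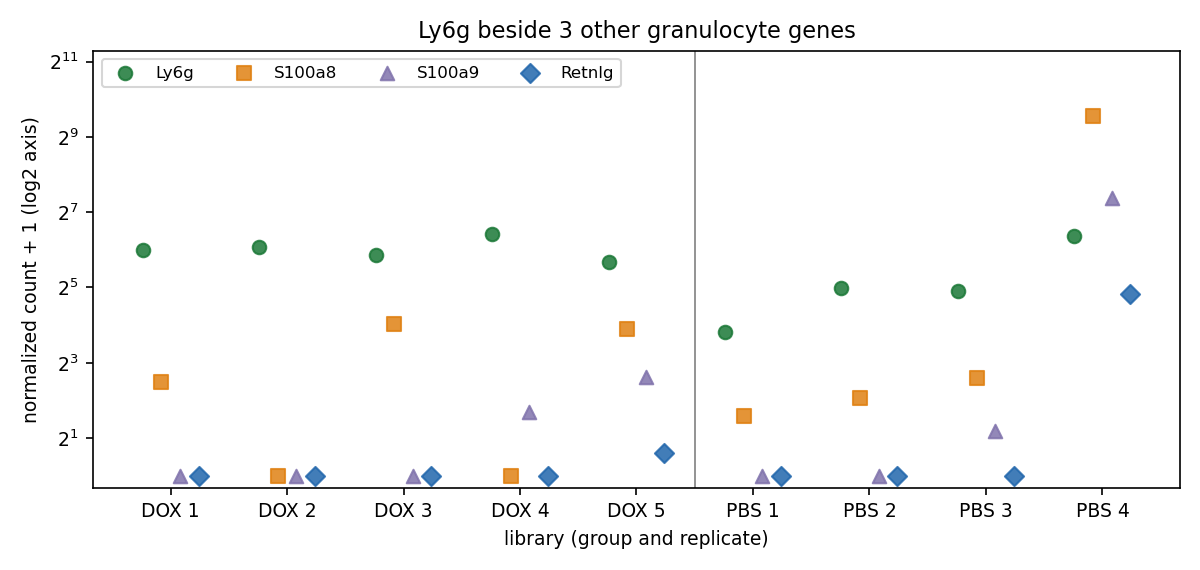
Normalized count + 1 on a log2 axis for Ly6g, S100a8, S100a9 and Retnlg in each library, with the 5 DOX libraries left of the line and the 4 PBS libraries right of it. Ly6g lies between 12.99 and 84.4 throughout, while S100a8 reaches 756, S100a9 164 and Retnlg 27.5 only in PBS replicate 4.

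Markers of other cells were looked at beside the members. The 16 monocyte and macrophage markers summed to 209 to 296 in DOX and 247 to 303 in PBS, most of it from Csf1r, the receptor of a macrophage growth factor, at 201 to 288 in DOX and 189 to 293 in PBS. Lyz2, the myeloid lysozyme and next highest of that list, was at 0 to 7.17 in DOX and 0 to 40.5 in PBS, the highest in PBS replicate 4. The endothelial list of 15 genes summed to 87.8 to 166 in DOX, 264 in PBS replicate 4 and 73.9 to 146 in the other PBS libraries, led by Egfl7 and Calcrl. The lymphocyte list of 16 genes summed to 27.8 to 48.7 in DOX and 6.33 to 22.7 in PBS, led by Trac and Cd3e. Trac, the constant region of a T cell receptor chain, was at 9.28 to 31.8 in DOX and 0 to 7.57 in PBS, and it entered the fit through the DOX libraries alone, so that no fold change is given. Cd3e, a subunit of the same receptor complex, was at 2.24 to 16.3 in DOX and 2.11 to 15.0 in PBS, and its groups overlapped. Epithelial markers, led by the surfactant genes Sftpc and Sftpb, summed to 43.6 to 177 in DOX, 439 in PBS replicate 4 and 15.8 to 30.3 in the other PBS libraries. The epithelial sums, like Ly6g, were thus lower in PBS replicates 1 to 3 than in every DOX library. The lymphocyte sums were lower in all 4 PBS libraries, at 17.8 in PBS replicate 4, where Ly6g was within the DOX range. They hold Trac, which was itself higher in every DOX library. Of the 2604 single genes tested, 3.38% were separated as Ly6g was without PBS replicate 4. The part of either list in the Ly6g difference was not tested.

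The pan-immune list was led by Cd74, at 0 to 17.4 in DOX and 4.00 to 110 in PBS, and Srgn, at 2.04 to 11.2 in DOX and 2.00 to 36.5 in PBS. Of the fibroblast genes, Gsn, the gene of the actin-severing gelsolin, was at 568 to 1070 in DOX and 341 to 627 in PBS (adjusted p = 0.761, and 0.652 without PBS replicate 4, limma). Pi16 and Igfbp4 of the adventitial list, and Inmt and Slc7a10 of the alveolar list, had adjusted p of 0.775 to 0.995 (0.717 to 0.987 without PBS replicate 4, limma). Interferon-stimulated genes were listed because Ly6e and Ly6a respond to interferon. Of 25, 4 were tested and none was called, with 3 at a higher and 1 at a lower mean in DOX. Over all 2604 genes tested, 1287 had a higher and 1317 a lower mean, and none was called. The median log2 fold change of the 4 was 0.62, with -0.01 over all genes tested. Without PBS replicate 4 it was 0.39, with 0.004 over all genes tested and again 3 of 4 higher. Usp18, a protease that removes ISG15, was at 2.04 to 133 in DOX and 8.91 to 54.9 in PBS. Irf7, a transcription factor of the interferon response, was at 21.3 to 49.2 in DOX and 29.97 to 66.9 in PBS.

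The genes whose levels followed Ly6g most closely over the 9 libraries were taken from 2603 tested genes by Pearson's r of log2(normalized count + 1). They were Rps9 (r = 0.97, Spearman's rho = 0.88), Slurp1 (r = 0.95, rho = 0.95), Rps20 (r = 0.94, rho = 0.95), Rpl27 (r = 0.93, rho = 0.88) and Pdia6 (r = 0.92, rho = 0.83). All points come from the same 9 libraries with 1 size factor each, so these are descriptions without a test. Rps9, Rps20 and Rpl27 encode proteins of the cytosolic ribosome and Pdia6 a disulfide isomerase of the endoplasmic reticulum. Rps9 was at 65.9, 69.7, 49.0, 65.7 and 51.7 in DOX, against 18.0, 33.8, 26.5 and 71.3 in PBS, so that PBS replicate 1 was the lowest of all and PBS replicate 4 the highest of the controls, as for Ly6g. Without PBS replicate 4 the r of the 5 genes with Ly6g was 0.91 to 0.97. After the mean of each group was taken off it was 0.87 to 0.96. With Ly6g, S100a8 had r = 0.24, S100a9 r = 0.42 and Retnlg r = 0.36, and without PBS replicate 4 these were -0.14, 0.24 and 0.10. The low levels of S100a8, S100a9 and Retnlg outside PBS replicate 4 entered the choice of Ly6g. Outside that library S100a9 was at 0 in 5 libraries, and Retnlg was above 0 in DOX replicate 5 alone. Their r values are therefore shaped by the choice and cannot show whether Ly6g followed granulocyte genes.

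**Figure D3:**
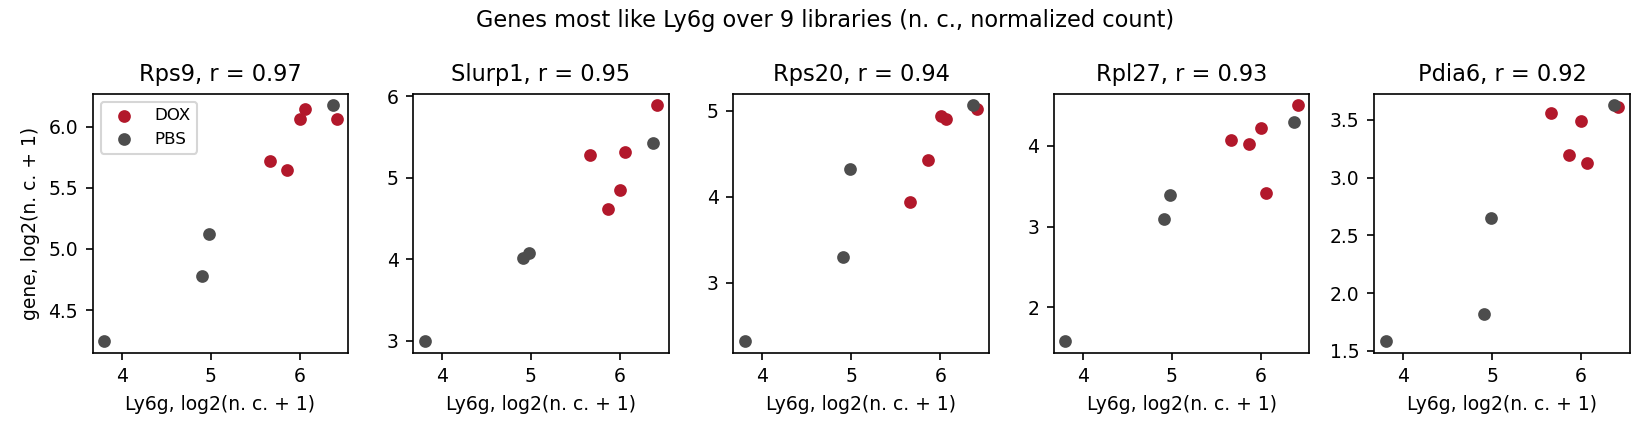
log2(normalized count + 1) of the 5 genes most like Ly6g (y axes, scales differ) against that of Ly6g (x axis), with DOX libraries in red and PBS libraries in grey. In each panel PBS replicate 1 is at the lower left and PBS replicate 4 lies beside the DOX libraries, away from the other controls.

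Ly6e followed other genes. The closest were Grin3b, which encodes a subunit of NMDA receptors (r = 0.96, rho = 0.92), Rab3a, a small GTPase of regulated secretion (r = 0.89, rho = 0.93), and Adgrl1, an adhesion receptor of neurons (r = 0.89, rho = 0.92). Grin3b was high for a receptor known from neurons, at 828 to 1310 in DOX and 758 to 1023 in PBS. The gene Tmem259 shares 1059 exonic bases with it on the opposite strand and was at 8.22 to 36.8 in DOX and 13.7 to 53.0 in PBS. Between Ly6g and Ly6e r was 0.55 (rho = 0.50), which was the 228th highest for Ly6g.

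Of the 45 genes on the Ly6/uPAR family list, 44 were in the tables and 25 were above 0 in any library, the 6 members among them. Only Ly6g, Ly6e and Slurp1 were high enough for the fit. All 3 had a higher mean in DOX, as had 1287 of all 2604 genes tested, and none was called, with 0% called over all genes. Their median log2 fold change, 0.98, is that of Ly6g itself, with -0.01 over all genes tested. Without PBS replicate 4 it was 1.44, again that of Ly6g, with 0.004 over all genes tested. Slurp1 encodes a secreted Ly6/uPAR protein of keratinocytes that acts on nicotinic receptors. It was at 27.8, 38.7, 23.5, 58.3 and 37.9 in DOX, against 6.99, 15.8, 15.1 and 42.1 in PBS. Its order over the libraries was close to that of Ly6g, with PBS replicate 1 lowest and PBS replicate 4 within the DOX range. The log2 fold change was 1.06 (standard error 0.51, 95% interval -0.02 to 2.14, adjusted p = 0.761, limma), and 1.49 without PBS replicate 4 (adjusted p = 0.428, limma), where every DOX library was above every PBS library. Of the 2604 genes tested, 3.38% were separated in that way. Slurp1 amounted to 41.1 to 76.3% of Ly6g in the DOX libraries and 51.5 to 53.8% in the PBS libraries.

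The other 18 family genes above 0 were low. Ly6f, which lies further along the same strand as Ly6g, was at 9.28, 5.81, 4.09, 7.47 and 6.15 in DOX, against 0.999, 9.50, 1.26 and 5.67 in PBS, and its last 300 bases were 82.1% identical to those of Ly6g. Gpihbp1, which carries lipoprotein lipase across capillary endothelium, was at 0 to 4.64 in DOX, 65.6 in PBS replicate 4 and 0 to 0.999 in the other PBS libraries. Plaur, the urokinase receptor of leukocytes and migrating cells, was at 0 to 10.2 in DOX, 37.3 in PBS replicate 4 and 0 to 13.9 in the other PBS libraries. Lypd1 was at 1.54 to 12.1 in DOX and 0.999 to 15.1 in PBS, Ly6g6c at 0 to 7.15 in DOX and 0.810 to 6.31 in PBS, and Lynx1, a modulator of nicotinic receptors, at 0 to 3.59 in DOX and 0 to 5.67 in PBS. The remaining 12, Ly6d, Ly6g2, Ly6h, Ly6k, Ly6m, Lypd2, Ly6g5b, Ly6g5c, Ly6g6e, Ly6g6f, Lypd11 and Tex101, reached at most 8.84 in any library, that of Ly6g5c in PBS replicate 3.

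Annotated neighbours bear on how family values can be read, since the strand setting of the count is not given in the sources used here. Slurp1 and Them6 share 322 exonic bases on opposite strands. Them6, a thioesterase superfamily gene, was at 0, 0, 1.02, 1.49 and 0 in DOX and at 0 in all 4 PBS libraries, below Slurp1 in each. Lypd1 and Gpr39 share 1202 exonic bases on opposite strands. Gpr39, a zinc-sensing receptor, was at 296, 174, 331, 211 and 231 in DOX, against 420, 311, 501 and 195 in PBS, above Lypd1 in each library. In both pairs, and in that of Grin3b and Tmem259, the reads fell almost wholly to a single gene. From which strand they came was not tested. Ly6g has no such annotated neighbour, nor had Rps9, Rps20 and Rpl27. Pdia6 shares 50 exonic bases with Atp6v1c2 on the opposite strand, which was at 27.1 to 113 in DOX and 59.95 to 103 in PBS. Pdia6 was below it in each library, at 7.74 to 11.2 in DOX and 2.00 to 11.3 in PBS. Whether the reads of Ly6g came from the Ly6g transcript could not be tested on values per gene.

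**Figure D4:**
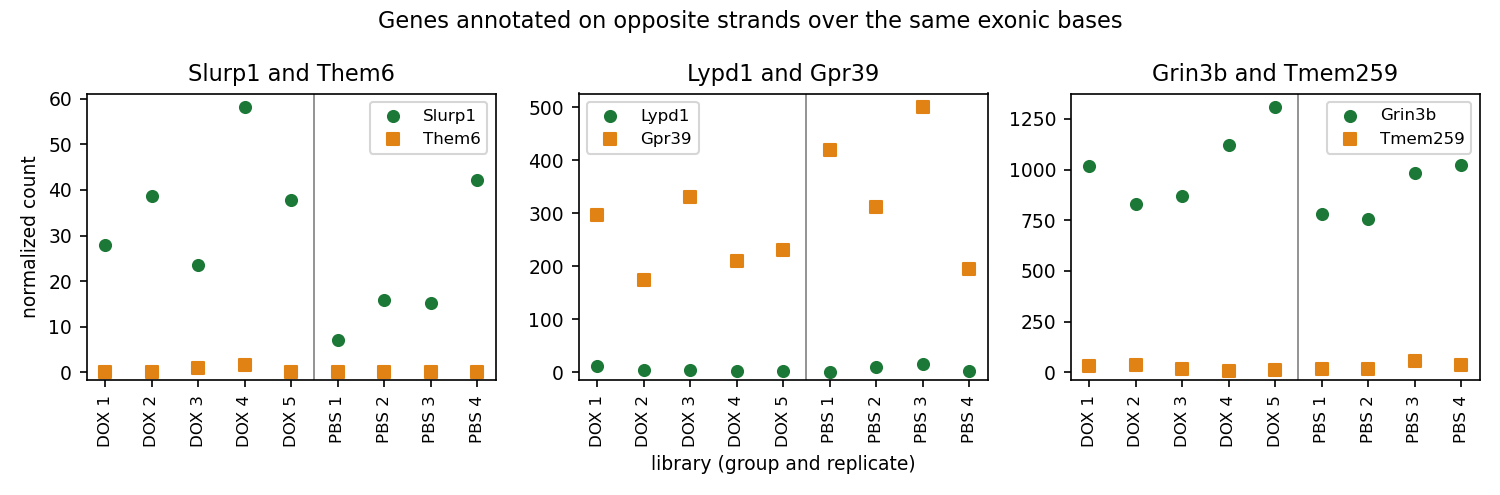
Normalized counts by library of 3 pairs of genes that share exonic bases on opposite strands, with the 5 DOX libraries left of the line and the 4 PBS libraries right of it. Slurp1 (up to 58.3) lies above Them6 (up to 1.49), Gpr39 (up to 501) above Lypd1 (up to 15.1), and Grin3b (up to 1310) above Tmem259 (up to 53.0) in each library.

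Another scaling, filter, pseudocount or test did not bring Ly6g or Ly6e past the threshold, and both fold changes stayed positive. For Ly6g the log2 fold change ran between 0.58 without PBS replicate 1 and 1.44 without PBS replicate 4. With edgeR on the recovered reads it was 0.71 (adjusted p = 0.921).

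**Figure D5:**
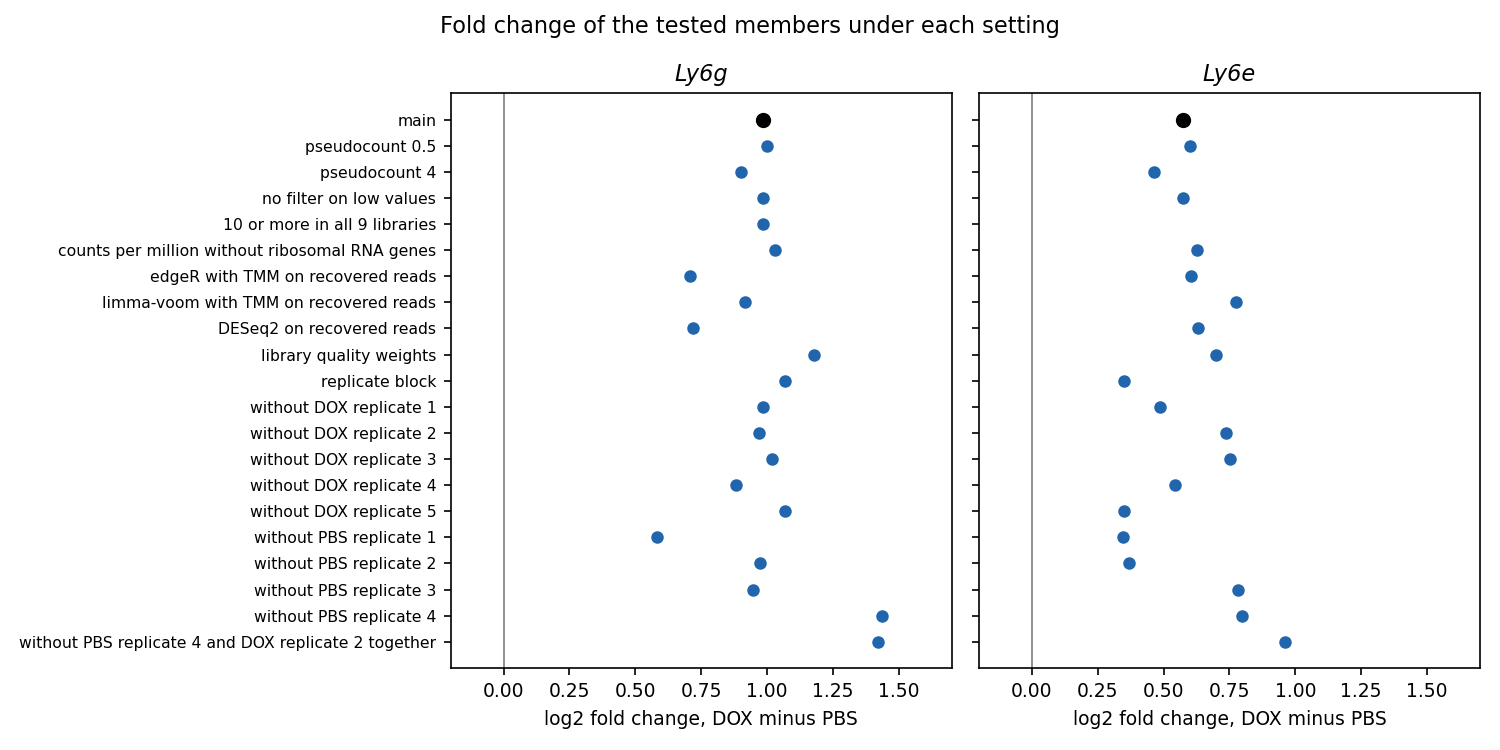
log2 fold change, DOX minus PBS, of Ly6g and Ly6e (x axis) under the main setting, drawn in black, and each alternative, drawn in blue (y axis). All points lie right of 0. For Ly6g they run from 0.58 to 1.44, with the largest values where PBS replicate 4 was left out, and Ly6e could not be fitted when 10 or more was required in all 9 libraries.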

How the data were processed

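Bulk MARS-seq libraries of sorted mouse lung fibroblasts, 5 DOX and 4 PBS, were analysed. The authors aligned with STAR to mm10 and counted per gene with HTSeq-count, and the sources used here give neither versions nor the strand setting nor the treatment of molecular tags. The deposited signal is a normalized count, in which every value was a whole multiple of 1 step per library (100% of values, tolerance 1e-06), so that reads were recovered by division. Repeated symbols (119) were summed. The fit written down first for counts was edgeR; as the values are normalized, limma 3.58.1 (R 4.3.3, mean-variance trend) on log2(value + 1) was the main test, over the 2604 genes that reached 10 in 4 libraries or more, two-sided, with Benjamini-Hochberg adjustment at 0.05. Ly6a and Ly6c1, below the filter, had exact permutation tests. edgeR 4.0.16, DESeq2 1.42.0 and limma-voom used recovered reads. The limma step was tested on simulated counts with 200 changed genes. Alternatives covered pseudocounts (0.5 and 4), filters, scaling, tests, library weights, a replicate block and left-out libraries.

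Members and lists were chosen with earlier results of these data known. The genes named were the members, other family genes above 0, S100a8, S100a9, Retnlg, the genes of the gate, the 2 highest of each marker list where none was called, the 5 genes most like Ly6g and 3 most like Ly6e, and genes annotated over a family gene. Positions and transcripts came from GENCODE M21 and start site sequences from a table made from RefSeq (GRCm38.p6), in which Ly6g, Ly6c1 and Ly6c2 were matched. Sequences of Ly6a, Ly6e and Ly6i were not used here. Transcript and start site sequences were aligned with Biopython 1.88. Between libraries of 1 group, chi-square per degree of freedom was 11.4 to 41.4 in DOX and 8.51 to 26.6 in PBS, so none was deposited again. The totals of 432322 to 1285816 reads give counting errors only.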

Additional observations from a re-analysis of the deposited data

Results flagged for a closer look

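Dixon's test at 95% flagged no library in the 12 groups of 4 or 5 libraries looked at. These were the groups of Ly6g, Ly6e, Ly6a, Ly6c1 and Slurp1 and of the share of Ly6g among the members. In groups this small only a very wide gap is flagged, so the result does not show that the libraries were alike. Ly6g in PBS replicate 4, at 81.8 against 30.6 in the next highest PBS library, was among the values not flagged. S100a8, S100a9, Retnlg and the other granulocyte markers were not tested in this way, since their level in PBS replicate 4 entered the choice of the genes.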

How the results depend on the processing

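No gene was called in the main fit, and 162 had an unadjusted p below 0.05 (limma). With no filter on low values 3 genes were called, none of them a Ly6 gene (CT010467.1, Gm17300 and Gm20721, named after their values were seen), and edgeR, DESeq2 and limma-voom called 0. With each library left out in turn the count was 0 throughout. The log2 fold change of Ly6g stayed positive and short of the threshold in 20 of 20 alternatives (adjusted p 0.427 to 0.986) and that of Ly6e in 19 of 19 (0.746 to 0.986). With each library left out in turn they were 0.58 to 1.44 for Ly6g, 0.34 to 0.80 for Ly6e, -0.13 to 1.20 for Ly6a and 0.15 to 0.77 for Ly6c1. Ly6a turned sign to -0.13 without PBS replicate 4 and to -0.028 without PBS replicate 4 and DOX replicate 2 together. Same-numbered libraries were weakly correlated in their deviations from the group means (0.02 to 0.07 over 4 pairs, all positive), and 6 of 8 libraries correlated best with their own number, a hint from the data only, as the labels give no shared animal or day. With the replicate number as a block, Ly6g had a log2 fold change of 1.07 (adjusted p = 0.797, limma) and Ly6e 0.35 (adjusted p = 0.953, limma), and 0 genes were called. Ly6a and Ly6c1 entered no fit with a filter, weights, block, edgeR or voom, and Ly6c2 and Ly6i, at or under 3 reads, got no alternatives. A value of 10 carries a counting error of 22.6 to 44.0%, which limits all members, Ly6g in PBS replicate 1 (13 reads) included.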
